A study of Rattus norvegicus with 6 samples.

Results

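The muscle atrophy ligases and the FOXO factors that control them were followed in rat myocardium after ischemia and reperfusion. The genes were taken by name from the deposited expression table: the F-box gene *Fbxo32* (atrogin-1), the MuRF genes *Trim63* (MuRF1), *Trim55* (MuRF2) and *Trim54* (MuRF3), the transcription factors *Foxo1*, *Foxo3* and *Foxo4*, and the ubiquitin gene *Ubb*. Of these 8 names, 7 matched a gene of the table, and all 7 were among the 10942 genes tested, out of 28293 genes in all. *Foxo4* matched no symbol and was not analysed here.

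Heart muscle RNA was sequenced in 3 sham animals and 3 animals with ischemia/reperfusion (I/R), all male wild type rats. In I/R, the artery (LAD) that feeds the front wall of the left ventricle was tied off for 30 min and then opened again for 6 h before the heart was taken. In their labels, sham animals carry the same times and no treatment other than the sham operation, and all rats had a left thoracotomy under anesthesia. The methods of the study describe a PBS injection into the caudal vein, as vehicle, for sham and reperfusion groups alike. Whether the sequenced rats received it is not stated there. The labels describe the rats as separate samples, 1 library each, and do not say from which region of the heart the tissue came.

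Skeletal and cardiac muscle break down their own contractile proteins through the ubiquitin-proteasome system. A ubiquitin ligase chooses the protein to be marked: atrogin-1 does so as the substrate arm of an SCF complex, and the MuRF proteins are RING-finger ligases that sit on the sarcomere. FOXO factors, held out of the nucleus when Akt phosphorylates them, are the classic activators of the atrogin-1 and MuRF1 genes in wasting muscle, whereas MuRF2 and MuRF3 are better known for work on microtubules and on the integrity of the contractile apparatus.

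The upstream sequences of *Trim63* and *Trim54* are shown here as the 250 bases before the RefSeq start of transcription (build GRCr8). This MuRF pair was picked for its opposite calls on the scale of the deposited values. Those calls depend on the scale, as given below. The *Trim63* window lies at chr5:151816986-151817235 on the plus strand and the *Trim54* window at chr6:30978476-30978725 on the minus strand. Capitals mark matches to the motifs described next.
Trim63: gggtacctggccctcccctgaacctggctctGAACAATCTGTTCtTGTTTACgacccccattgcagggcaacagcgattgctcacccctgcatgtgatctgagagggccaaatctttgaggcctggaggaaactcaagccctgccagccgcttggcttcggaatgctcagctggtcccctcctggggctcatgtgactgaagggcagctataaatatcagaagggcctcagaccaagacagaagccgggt
Trim54: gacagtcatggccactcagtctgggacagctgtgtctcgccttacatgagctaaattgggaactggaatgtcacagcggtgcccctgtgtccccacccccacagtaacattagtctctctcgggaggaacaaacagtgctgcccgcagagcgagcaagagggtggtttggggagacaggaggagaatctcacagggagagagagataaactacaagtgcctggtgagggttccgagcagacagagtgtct

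The motifs looked for, on both strands, were the FOXO element GTAAACA, an inverted repeat of the glucocorticoid receptor type (GAACA and TGTTC, 3 bases apart), and the heat shock pair GAANNTTC. The motifs were chosen after the *Trim63* window had been seen. The shares over all windows therefore do not measure how unusual the *Trim63* matches are. *Trim63* held the FOXO element as TGTTTAC at bases -205 to -199 from the start, 1 base after the inverted repeat at bases -219 to -207, with no overlap between them. Of 33465 windows of the same length, 3.21% held the FOXO element, 0.0418% the inverted repeat and 7.23% the heat shock pair, and 1 window, that of *Trim63*, held both of the first kinds. No match was found in the windows of *Trim54*, *Foxo1*, *Foxo4* and *Ubb*, and *Fbxo32*, *Trim55* and *Foxo3* had no window in the reference table. Such a match is a description of letters and says nothing of binding.

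Each value is given in FPKM, fragments scaled to transcript length and library size, as deposited. A gene was called changed when the adjusted p of limma, corrected over all genes tested, was under 0.05. The libraries differed in ways that touch every result. The 13 mitochondrially encoded mRNAs took 80.1 to 86.2% of all FPKM in sham and 61.8 to 71.5% in I/R. The summed FPKM of the cardiomyocyte markers was 2818 to 8457 in sham and 19500 to 29839 in I/R. Of these markers 6 of 7 were in the table, 5 of the 6 were called higher in I/R, and all 6 were well above 0 in every library. Sham 1 stood apart from the other sham rats, with a mean log2 level of these markers of 9.01 against 7.92 and 7.51, while the I/R rats lay at 10.27 to 11.00. Depth, read from the smallest steps of the values relative to sham 1, was 1 to 1.18 in sham and 0.871 to 0.937 in I/R.

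Of the 7 genes, 4 passed the test. On the scale of the deposited values, *Trim54*, *Trim55* and *Ubb* were higher in I/R, by 2.93-, 2.58- and 2.01-fold in mean FPKM, and *Trim63* was lower, at 0.550 of the sham mean. With the values centred on cardiomyocyte markers, all 4 had log2 fold changes below 0, beside a median of -2.08 over all genes tested. On the deposited scale, 25.5% of all genes tested were called higher and 7.36% lower. The median log2 fold change there was 0.29, with 65.3% of the genes above 0. Without sham 1, the library that stood apart, the calls among the 7 genes were 3 higher and 0 lower. In bulk tissue, fewer cells of a type and less RNA per cell cannot be told apart. The p-values measure only the spread between these rats.

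*Trim63* encodes MuRF1, which marks myosin and other thick filament proteins (ENSRNOG00000016543). Its FPKM was 24.3, 31.3 and 17.2 in sham 1, 2 and 3 and 17.2, 12.3 and 10.6 in I/R 1, 2 and 3. All I/R rats lay below all sham rats, but I/R 1 and sham 3 were nearly level. The means were 24.3 ± 7.04 and 13.3 ± 3.42 (SD, n = 3 each). The log2 fold change was -0.85 (SE 0.29, 95% interval -1.49 to -0.20, adjusted p = 0.0472 in limma). This call rests on little: without sham 1 the adjusted p was 0.0857, without sham 2 it was 0.157, without I/R 2 it was 0.117 and without I/R 3 it was 0.147, with log2 fold changes of -0.82, -0.64, -0.80 and -0.69. It also depended on the scale. The adjusted p of limma was 0.0129 centred on the median, 0.00587 after quantile normalization and 0.00155 without mitochondrial mRNAs, but 0.140 after rescaling to TPM.

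*Fbxo32* encodes atrogin-1, the F-box protein that brings substrates such as calcineurin to the SCF ligase (ENSRNOG00000006738). Its level was much lower than that of *Trim63* on the same per-length scale, at 1.62, 2.46 and 1.48 FPKM in sham and 1.41, 0.673 and 0.749 FPKM in I/R. Again no I/R rat reached the lowest sham rat, and I/R 1 was the highest of its group. The means were 1.85 ± 0.533 and 0.944 ± 0.404. The log2 fold change of -0.94 (SE 0.33, 95% interval -1.67 to -0.20) just missed the threshold, with an adjusted p of 0.0518 in limma, and without I/R 1 it was -1.23 with an adjusted p of 0.0229. The adjusted p for *Fbxo32* was 0.0147 centred on the median, 0.0265 after quantile normalization and 0.00519 without mitochondrial mRNAs, but 0.122 after rescaling to TPM (limma). In the ranking of log2 fold changes, 7.21% of all genes tested lay below *Fbxo32* and 8.48% below *Trim63*.

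**Figure D1:**
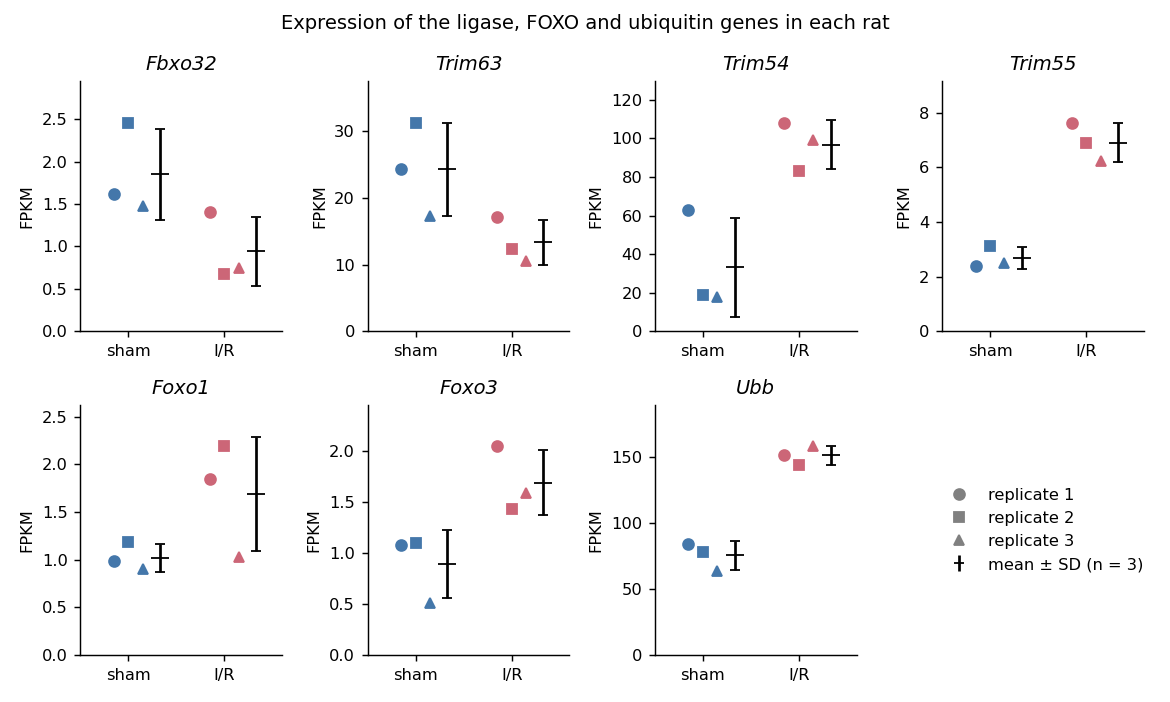
FPKM of each of the 7 genes by rat (y axis, 1 panel a gene with its own scale from 0), with points for the 3 sham and 3 I/R rats and bars for the mean and SD. Sham 1 sits apart from the other sham rats for *Trim54*, and *Foxo1* is the gene with overlapping groups.

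*Trim54* encodes MuRF3, a microtubule- and sarcomere-associated relative of MuRF1 (ENSRNOG00000006146). It was at 62.7, 18.7 and 17.9 FPKM in sham and 108, 83.2 and 99.1 FPKM in I/R. The I/R rats were close together and all above sham, whereas sham 1 was over 3 times as high as the other sham rats. The means were 33.1 ± 25.6 and 96.8 ± 12.6. The log2 fold change was 1.80 (SE 0.44, 95% interval 0.82 to 2.77, adjusted p = 0.0132 in limma). Without sham 1 it was 2.39 with an adjusted p of 0.000522, and without sham 2 it was 1.52 with an adjusted p of 0.0666, which does not pass. After quantile normalization it was 0.88 with an adjusted p of 0.119 in limma.

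*Trim55* encodes MuRF2, which binds titin and microtubules (ENSRNOG00000012723). It had the tightest groups of the family, at 2.39, 3.13 and 2.51 FPKM in sham and 7.63, 6.87 and 6.21 FPKM in I/R. The lowest I/R rat was far above the highest sham rat. The means were 2.68 ± 0.394 and 6.90 ± 0.710. The log2 fold change was 1.34 (SE 0.22, 95% interval 0.85 to 1.83, adjusted p = 0.00366 in limma), and the call held with any 1 rat left out, with adjusted p-values up to 0.0173. Rescaled without mitochondrial mRNAs, the log2 fold change was 0.58 and the call was lost (adjusted p = 0.129 in limma).

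The 3 MuRF transcripts thus did not move together, and their make-up was compared within each rat, where a factor common to a library cancels. *Trim63* made up 27.2, 59.0 and 45.8% of the summed MuRF FPKM in sham and 12.9, 12.0 and 9.12% in I/R. *Trim54* made up 70.1, 35.1 and 47.6% in sham and 81.4, 81.3 and 85.5% in I/R. In sham 2 *Trim63* was the leading MuRF transcript, and in every I/R rat *Trim54* was. The mean share of *Trim63* was 43.97 ± 16.0% in sham and 11.3 ± 1.98% in I/R, with no overlap (two-sided exact permutation p = 0.1, the smallest that 3 rats against 3 allow). *Trim55* held 2.68 to 6.66% of the sum in sham and 5.36 to 6.71% in I/R, with overlapping groups (exact permutation p = 0.8). The summed FPKM of the 3 genes was 60.0 ± 26.6 in sham and 117 ± 15.3 in I/R, again without overlap (exact permutation p = 0.1).

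**Figure D2:**
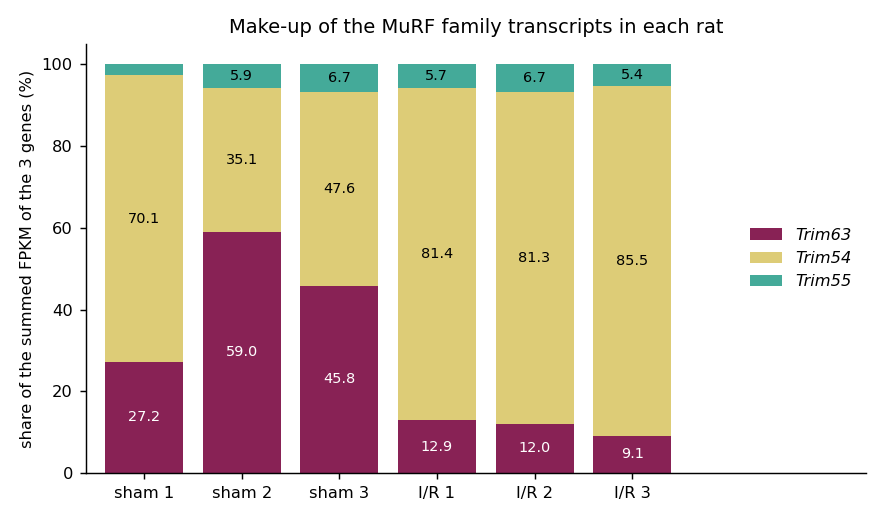
Share of *Trim63*, *Trim54* and *Trim55* in the summed FPKM of the 3 genes (y axis, percent), 1 stacked bar a rat for the 3 sham and 3 I/R rats. *Trim63* takes 9.12 to 12.9% in I/R and 27.2 to 59.0% in sham.

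Ratios between the genes were also taken within each rat, where a factor that multiplies a whole library cancels, though quantile normalization and a larger pseudocount can still shift them. The log2 ratio of *Trim63* to *Trim54* was -0.23 ± 1.06 in sham and -2.87 ± 0.30 in I/R, a difference of -2.65. That of *Trim63* to *Trim55* was 3.10 ± 0.32 in sham and 0.92 ± 0.21 in I/R, a difference of -2.19. In both, the groups did not overlap, and each had an exact permutation p of 0.1, or 0.3 after adjustment over the 6 ratios computed. The ratio of *Fbxo32* to *Trim63*, the classic atrophy pair, was -3.64 ± 0.19 in sham and -3.72 ± 0.25 in I/R, with overlapping groups (difference -0.089, exact permutation p = 0.6). That of *Trim54* to *Trim55* was 3.33 ± 1.16 and 3.79 ± 0.20, also with overlap (difference 0.46, exact permutation p = 0.5). That difference was 1.12 without sham 1 and 0.066 without sham 2.

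*Foxo3* and *Foxo1* encode the forkhead factors that switch on atrophy and autophagy genes. *Foxo3* (ENSRNOG00000000299) was at 1.08, 1.09 and 0.506 FPKM in sham and 2.05, 1.43 and 1.59 FPKM in I/R. Every I/R rat was above every sham rat, and sham 3 was the lowest. The means were 0.894 ± 0.336 and 1.69 ± 0.318. The log2 fold change was 0.90 (SE 0.32, 95% interval 0.18 to 1.62) with an adjusted p of 0.0567 in limma. With the rat number added as a block the adjusted p was 0.0469, under the threshold, but no source used here pairs the rats.

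*Foxo1* (ENSRNOG00000013397) was at 0.981, 1.18 and 0.896 FPKM in sham and 1.84, 2.19 and 1.03 FPKM in I/R. I/R 3 lay inside the sham range and the other I/R rats above it. The log2 fold change was 0.62 (SE 0.31, 95% interval -0.07 to 1.31, adjusted p = 0.146 in limma). Without I/R 3 it was 0.92 with an adjusted p of 0.0481. The log2 ratio of *Foxo1* to *Foxo3* was 0.23 ± 0.44 in sham and -0.049 ± 0.59 in I/R and did not separate the groups (difference -0.28, from -0.59 to -0.014 with 1 rat left out, exact permutation p = 0.5).

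*Ubb* encodes a chain of ubiquitin units that is cut into the protein itself (ENSRNOG00000066088). It was at 84.4, 78.3 and 63.6 FPKM in sham and 152, 144 and 158 FPKM in I/R. The I/R rats lay close together, far above the highest sham rat. The means were 75.4 ± 10.7 and 151 ± 6.96, and the log2 fold change was 1.01 (SE 0.23, 95% interval 0.50 to 1.52, adjusted p = 0.01002 in limma). Rescaled without mitochondrial mRNAs it was 0.23 (adjusted p = 0.478), and after quantile normalization -0.088 (adjusted p = 0.744). *Rps27a*, which encodes ubiquitin fused to a ribosomal protein, was at 255 ± 11.3 and 287 ± 56.4 (log2 fold change 0.15, adjusted p = 0.671). Genes that encode ubiquitin share near-identical coding sequence, and how reads that match several places were counted is not given in the sources used here, so the level of *Ubb* is uncertain to that extent.

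By level, the 7 genes kept their order of size in sham and I/R only in part. *Ubb* lay above 97.7% of all genes tested in both groups, and *Trim54* above 95.4% in sham and 96.7% in I/R. *Trim63* went from 93.7% to 82.5% and *Fbxo32* from 37.9% to 16.3%. *Trim55* went from 50.6% to 70.4%, *Foxo3* from 15.1% to 32.4% and *Foxo1* from 18.8% to 32.3%. In sham, *Trim54* and *Trim63* did not differ beyond their SDs, nor did *Foxo1* and *Foxo3*. In I/R, *Foxo1* and *Foxo3* were level at a mean of 1.69.

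**Figure D3:**
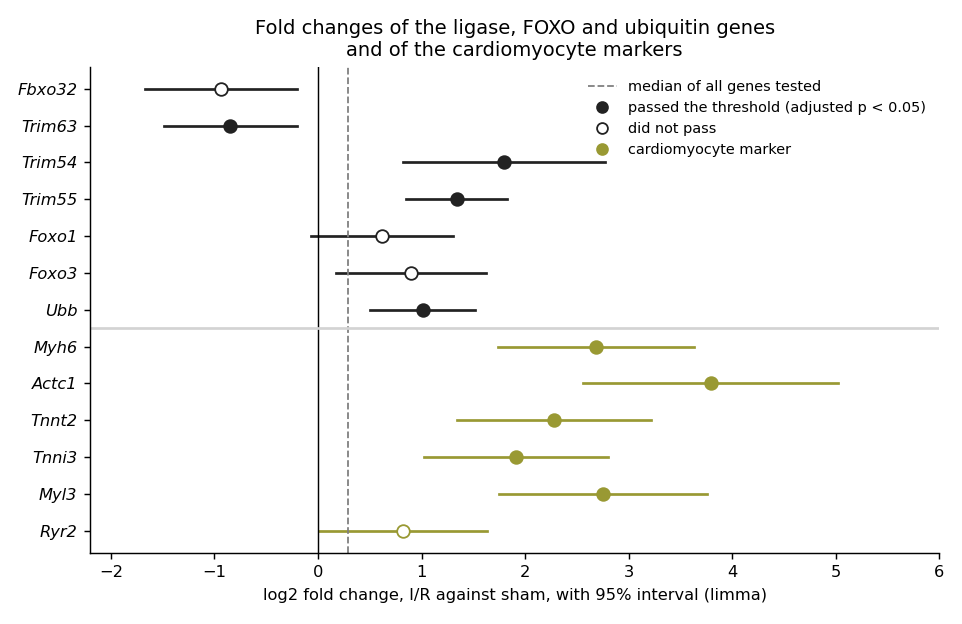
Log2 fold change of each gene with its 95% interval from limma (x axis), with the cardiomyocyte markers of the same fit below them and a dashed line at the median of all genes tested, 0.29. On this scale *Trim63* and *Fbxo32* lie below 0 and the others above it, and the markers other than *Ryr2* lie further up than any of the 7 genes. Centred on the markers, all 7 lie below 0, beside a median of -2.08 over all genes tested.

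Without overlap, 4 of the 7 genes were higher (*Trim54*, *Trim55*, *Foxo3* and *Ubb*) and 2 lower (*Fbxo32* and *Trim63*), beside 37.2% and 13% of all genes tested. These directions depend on the scale. Relative to the median gene of the same fit, *Trim63* was at -1.59 to -1.13 over 6 scalings, *Fbxo32* at -1.29 to -1.02, *Trim55* at 1.02 to 1.06 and *Trim54* at 0.90 to 1.51. Most of these scalings shift all genes of a library alike, which fixes such a value in advance, and quantile normalization gave the far ends for *Trim63* and *Trim54*. *Foxo3* was at 0.61 to 0.86, *Foxo1* at 0.33 to 0.57 and *Ubb* at -0.066 to 0.73. When the values were instead centred on the cardiomyocyte markers, whose mean log2 level was 8.15 ± 0.77 in sham and 10.52 ± 0.42 in I/R, all 7 genes had log2 fold changes below 0. The differences were then -3.31 for *Fbxo32* and -3.22 for *Trim63* against -0.58 for *Trim54* and -1.04 for *Trim55*. The median over all genes tested on that scale was -2.08, and 9381 of the 10942 genes were called lower. *Trim54* and *Trim55* overlapped between the groups on that scale (exact permutation p = 0.2 and 0.3), and the other 5 did not (exact permutation p = 0.1 each). The part of the marker level in each result was not tested.

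**Figure D4:**
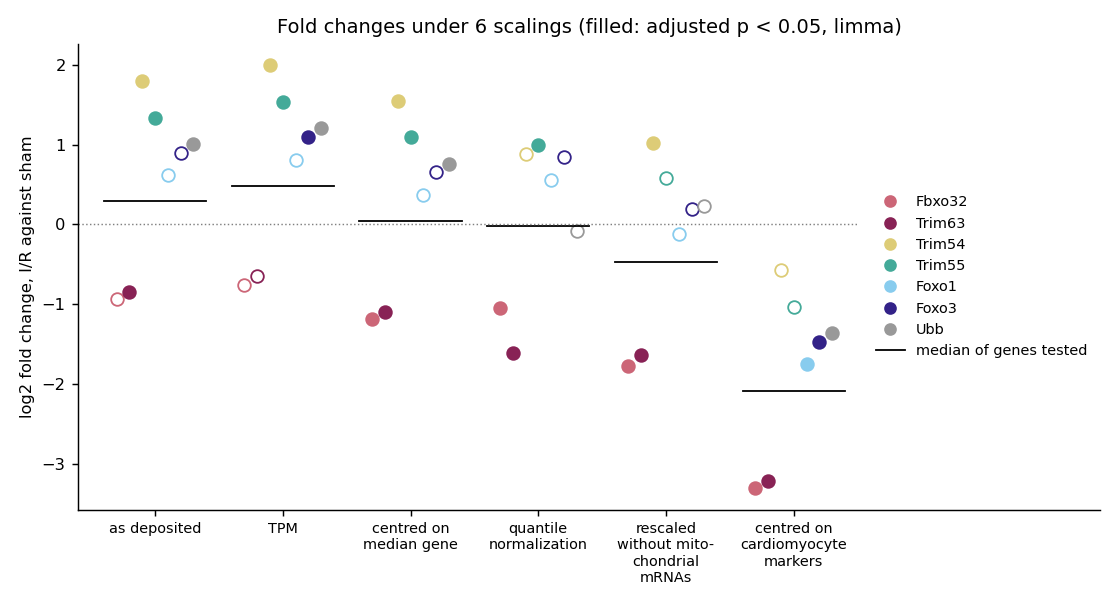
Log2 fold changes of the 7 genes (y axis) under 6 scalings of the table (x axis), filled where the adjusted p of limma was under 0.05, with a bar at the median of all genes tested. *Trim63* and *Fbxo32* lie below the median gene and *Trim54*, *Trim55*, *Foxo1* and *Foxo3* above it, which most of these scalings cannot alter, while the zero line cuts the genes differently each time.

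Of 22 other ubiquitin ligases of muscle, 20 were tested, 5 rose, 1 fell and 14 did not pass (25% higher and 5% lower, near the 25.5% and 7.36% of all genes tested), with a median log2 fold change of 0.27, against 0.29 over all genes. Without sham 1 or sham 3 the count that rose was 3. After rescaling without mitochondrial mRNAs 3 were called higher and 4 lower, beside 772 and 2831 of all 10942 genes tested. *Fbxl22*, a cardiac F-box gene of the Z-disc, rose from 1.59 ± 1.68 to 11.7 ± 1.57 FPKM (log2 fold change 3.25, adjusted p = 0.00383). *Trim72*, a membrane repair protein that is also a ligase, went from 12.3 ± 6.63 to 59.1 ± 34.2 FPKM (2.23, adjusted p = 0.00651). *Fbxo40*, a muscle F-box gene that targets IRS1, went from 4.87 ± 1.73 to 15.9 ± 2.48 FPKM (1.73, adjusted p = 0.00366). *Asb15*, a muscle SOCS box gene, fell from 6.33 ± 1.82 to 1.64 ± 0.860 FPKM (log2 fold change -1.95, adjusted p = 0.00529).

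The SCF complex, in which atrogin-1 works, was followed through *Skp1*, *Cul1* and *Rbx1*. *Skp1*, the adaptor that holds the F-box protein, rose from 36.7 ± 3.41 to 71.7 ± 8.52 FPKM (log2 fold change 0.96, adjusted p = 0.0111). *Cul1*, the scaffold, was at 3.13 ± 0.633 and 4.51 ± 0.369 FPKM (0.53, adjusted p = 0.101), and *Rbx1*, the RING subunit, was under the filter on low values. Of the genes that activate, transfer or remove ubiquitin, 11 of 23 tested rose and none fell (47.8% and 0%, against 25.5% and 7.36% of all genes), with a median of 0.67. But rescaled without mitochondrial mRNAs 0 were called higher and 1 lower, beside 772 and 2831 of all 10942 genes tested. Without sham 2 the count that rose was 7 and without sham 3 it was 5. *Usp2*, a deubiquitinase, went from 1.40 ± 0.656 to 4.52 ± 2.55 FPKM (1.56, adjusted p = 0.0187), *Otub1*, another, from 0.527 ± 0.0570 to 1.73 ± 0.855 FPKM (1.45, adjusted p = 0.0130), and *Ube2v1*, a partner in lysine-63 chains, from 2.65 ± 0.605 to 6.62 ± 2.32 FPKM (1.26, adjusted p = 0.0110).

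Of the genes that act on FOXO factors or work with them, 9 of 28 tested rose and 1 fell (32.1% and 3.57%, against 25.5% and 7.36% of all genes), with a median of 0.44. On the scale without mitochondrial mRNAs 2 were called higher and 8 lower, beside 772 and 2831 of all 10942 genes tested. *Ppargc1a*, the coactivator PGC-1α that restrains FOXO3 in muscle, rose from 0.812 ± 0.243 to 3.12 ± 0.599 FPKM (1.84, adjusted p = 0.00318). *Irs2*, an insulin receptor substrate, went from 0.755 ± 0.351 to 2.40 ± 0.786 FPKM (1.59, adjusted p = 0.0110), and *Ywhah*, a 14-3-3 protein of the family that holds phosphorylated FOXO in the cytoplasm, from 27.1 ± 4.13 to 81.6 ± 16.9 FPKM (1.58, adjusted p = 0.00350). *Pik3ca*, the catalytic PI3 kinase subunit upstream of Akt, fell from 3.71 ± 0.360 to 2.29 ± 0.407 FPKM (-0.68, adjusted p = 0.0430). The lower calls in this list were 2 without sham 1 and 0 without any 1 of the other rats. Chosen after their values were seen, the FOXO kinases *Akt1* and *Akt2* went from 16.5 ± 2.34 to 37.4 ± 12.3 and from 10.7 ± 2.26 to 22.6 ± 5.62 FPKM (adjusted p = 0.0137 and 0.0145).

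Of 29 known FOXO target genes tested, 10 rose, 3 fell and 16 did not pass (34.5% and 10.3%, against 25.5% and 7.36% of all genes), with a median of 0.39. When rescaled without mitochondrial mRNAs, 6 were called higher and 8 lower, beside 772 and 2831 of all 10942 genes tested. *Trib1*, a Tribbles pseudokinase, went from 0.716 ± 0.0964 to 6.19 ± 1.06 FPKM (2.94, adjusted p = 0.000205), *Sod2*, the mitochondrial superoxide dismutase, from 13.1 ± 3.36 to 61.5 ± 12.3 FPKM (2.24, adjusted p = 0.00151), and *Gadd45a*, a stress and DNA damage gene, from 3.03 ± 0.838 to 14.0 ± 2.43 FPKM (2.19, adjusted p = 0.00155). *Cdkn1b*, the cell cycle inhibitor p27, fell from 14.8 ± 4.02 to 5.70 ± 1.21 FPKM (-1.34, adjusted p = 0.00771), and *Ccng2*, cyclin G2, from 5.57 ± 1.06 to 2.46 ± 0.567 FPKM (-1.15, adjusted p = 0.00924). The FOXO element was in the promoter window of 1 of the 25 listed targets that had one, *Bcl2l11*. These targets have other regulators, and their counts are given without a reading of FOXO activity.

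Of the genes whose proteins MuRFs and atrogin-1 bind or mark, 10 of 20 tested were called higher in mRNA and none lower (50% and 0%, against 25.5% and 7.36% of all genes), with a median of 0.93. Protein levels were not measured in these data. *Myl3*, a ventricular myosin light chain, went from 456 ± 345 to 2632 ± 598 FPKM (2.76, adjusted p = 0.00366), *Myh6*, the alpha myosin heavy chain, from 459 ± 283 to 2669 ± 754 FPKM (2.68, adjusted p = 0.00350), and *Ckm*, muscle creatine kinase, from 84.0 ± 59.9 to 507 ± 291 FPKM (2.68, adjusted p = 0.00556). Several of them are cardiomyocyte markers themselves. Without sham 1 the count called higher was 12, and without sham 2 or sham 3 it was 6. Rescaled without mitochondrial mRNAs, 6 were called higher and 3 lower, beside 772 and 2831 of all genes tested. Centred on the cardiomyocyte markers, no gene of any of these lists was called higher, and 11 of the substrate list were called lower. Over all 10942 genes tested, 35 were then called higher and 9381 lower, and some genes of this list define that centring.

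**Figure D5:**
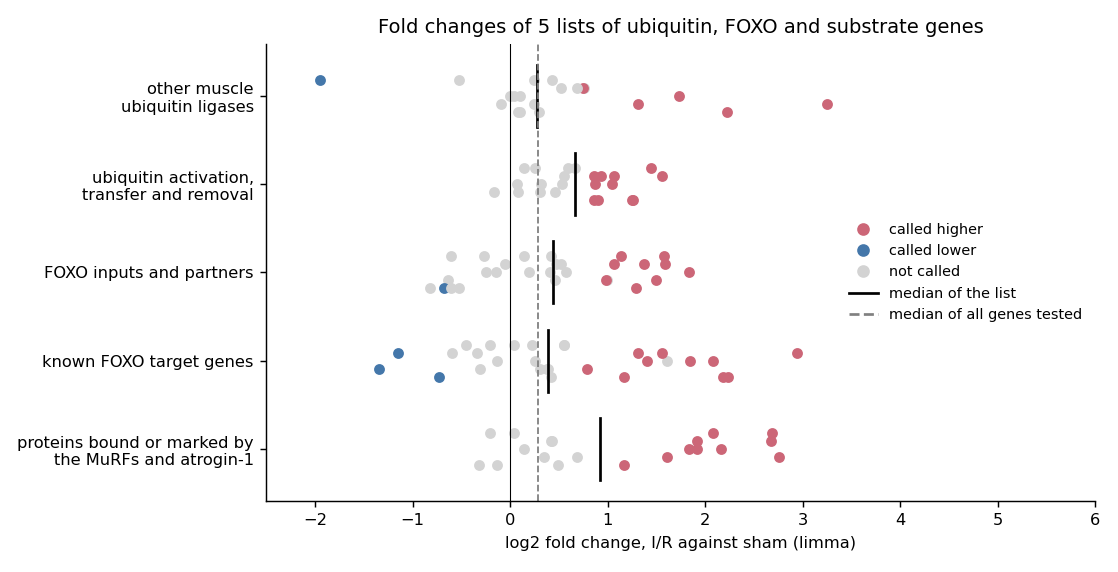
Log2 fold changes from limma (x axis) of the tested genes of 5 lists, 1 point a gene, red where called higher, blue where called lower and grey otherwise, with a bar at the median of each list and a dashed line at the median of all genes tested, 0.29. The medians run from 0.27 for the other muscle ligases to 0.93 for the genes of the bound or marked proteins, and centring on the cardiomyocyte markers moves the median of all genes to -2.08.

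Markers of other cells were read for the same libraries. Skeletal muscle, where these ligases are best known, left little trace: *Myh4* and *Myf6* were at 0 in all 6 libraries, *Myh2* reached 0.0419 FPKM, and the 11 matched markers summed to 5.26 to 6.46 FPKM in sham and 6.79 to 9.43 FPKM in I/R, with *Casq1* the 1 of 3 tested that was called higher. *Casq1* made up most of the sum in I/R, and the other tested markers had log2 fold changes of -1.15 (*Tnnt3*) and -0.81 (*Mylpf*), which did not pass. Neutrophil and monocyte markers summed to 17.0 to 21.5 FPKM in sham and 36.4 to 89.6 FPKM in I/R. Of these, 4 of 7 tested were called higher and none lower (57.1% and 0%, against 25.5% and 7.36% of all genes). *S100a8* and *S100a9* made up most of the sum in I/R, and *Mmp8* and *Cd14* were the other calls. *Mmp8* (mean 0.176 FPKM in sham, 1.65 in I/R) and *Csf3r* (0.258 and 0.744) reached the filter of 0.5 only through I/R. The share called higher is therefore not free of that filter. *Csf3r* (log2 fold change 1.03), *Ly86* (-0.12) and *Fcgr3a* (-0.84) did not pass. The part of these cells in the levels of the ligases was not tested.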

How the data were processed

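The FPKM table of the authors, as deposited, held 30452 gene entries for 3 sham and 3 I/R rats. Per the labels, stranded total RNA libraries were made from Trizol extracts, and the submitters' processing notes name STAR and HTSeq without a version. The genome build, the annotation and the total used for scaling are not given in the sources used here. Entries of 1 symbol were summed, and 7092 entries without a symbol kept their identifier.

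Log2(FPKM + 0.1) was compared with limma 3.58.1 in R 4.3.3 (intensity trend) for 10942 genes (mean FPKM 0.5 or more), with Benjamini-Hochberg adjustment and a threshold of 0.05. A fold change on this scale understates the change of low genes. Two-sided exact permutation tests cannot go under 0.1 here. The method was tested on simulated data with independent normal errors, which does not bear on the scaling between libraries. Genes, lists and tests were chosen with earlier results of these data known. By rule, the text names the 8 genes, the SCF and ubiquitin genes, up to 3 higher and 2 lower genes of each list among those called without overlap, and the 2 genes nearest in pattern to each of the 7. Some genes that the rule names are not reported here.

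The labels number the rats in both groups, and no source used here pairs a sham rat with an I/R rat. Same-numbered rats correlated at 0.20, 0.12 and 0.12 in their deviations over genes, all above 0.1, as did sham 3 with I/R 2 (0.12), and the rat number was added as a block in an alternative fit. The alternatives were other pseudocounts, filters and scalings, leaving out each rat, and the block. FPKM gives no total count of reads, so depth is known only relative to sham 1. Promoter windows came from RefSeq (GRCr8), which matched 5 of the 8 genes.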

Additional observations from a re-analysis of the deposited data

How the results depend on the processing

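Of the log2 fold changes of the 7 genes under 18 alternatives, 96 kept their direction and their side of the threshold, 11 lost the call, 8 gained it and 7 changed direction. *Trim63* and *Fbxo32* had log2 fold changes below 0 under every alternative that tested them, and were called in 11 of 18 and 5 of 17. *Trim54* was called in 15 of 18, *Trim55* in 15 of 17 and *Ubb*, once as lower, in 16 of 18. With 1 rat left out at a time, the calls among the 7 genes were 2 to 4 higher and 0 to 2 lower, those over all genes 1528 (without sham 3) to 2557 higher and 309 (without sham 2; 359 without sham 3) to 881 lower, and the *Fbxo32* to *Trim63* ratio difference -0.19 to 0.051. It was 0.25 with a pseudocount of 1. Without the filter, after rescaling to TPM and in limma without the trend, 0 of the 7 were called lower, since *Trim63* lost its call (adjusted p = 0.0841, 0.140 and 0.0594). Over all genes, 504 were called lower after rescaling to TPM and 166 with a filter at 5 FPKM, which left 3 of the 7 genes.

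Scaling mattered most. Over all genes, median centring gave 1554 lower calls, quantile normalization 1441 higher and 1559 lower, rescaling without mitochondrial mRNAs 772 higher and 2831 lower, and centring on cardiomyocyte markers 35 higher and 9381 lower. Each of the first 3 gave 2 lower calls among the 7 genes, and the last gave 5. Quantile normalization and rescaling without mitochondrial mRNAs left 1 higher call each, and cardiomyocyte centring 0. The share of calls that were higher was 77.6% as reported, 87.3% for TPM, 56.5%, 48.0%, 21.4% and 0.372% for those 4 scalings, and 91.9% with the filter at 5. *Foxo1* was at -0.12 without mitochondrial mRNAs and *Ubb* at -0.088 after quantile normalization. On the cardiomyocyte scale *Foxo1* was at -1.75, *Foxo3* at -1.47, *Trim54* at -0.58, *Trim55* at -1.04 and *Ubb* at -1.36. Which scale is right for this tissue was not tested.

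With the replicate block, 3085 genes were called higher and 895 lower, and of the 7 genes only *Foxo3* changed its call, to an adjusted p of 0.0469. With 3 rats a group, the 95% interval of *Foxo1* included 0, so no difference could not be told apart from the differences inside that interval.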

Other observations

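The genes closest in pattern to each ligase or factor were found by the root mean square difference over the 6 libraries, after each gene was centred on its own mean log2 level. *Uqcrq*, a subunit of respiratory complex III, was nearest to *Trim54* at 0.0734, followed by *Romo1*, a mitochondrial membrane protein, at 0.0893. Both had the high sham 1 of *Trim54*: *Uqcrq* was at 1507, 494 and 410 FPKM in sham and 2830, 2059 and 2532 FPKM in I/R. *Marcksl1* (0.0768) and *Plekho2* (0.0907) were nearest to *Trim55*, and *Ruvbl1* (0.0732) and *Get4* (0.0762) to *Ubb*. *Zfp14* (0.106) and *Cep250* (0.124) were nearest to *Trim63*, and *Nfatc2ip* (0.115) and *Pidd1* (0.138) to *Fbxo32*. For *Foxo3* they were ENSRNOG00000021403 (0.0701) and *Cdh13* (0.104), and for *Foxo1* *Klf16* (0.111) and *Tti2* (0.120). With 6 libraries and 10942 genes tested such neighbours are a description only.

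Markers of further cell types were read beside the shares over all genes tested, 25.5% called higher and 7.36% lower. None of the 8 pan-leukocyte and none of the 7 endothelial markers was called. *Ptprc* was lower in I/R without overlap (log2 fold change -0.93, adjusted p = 0.0675 in limma), and the other pan-leukocyte markers overlapped between the groups. Of the fibroblast markers 2 of 7 were called higher (28.6%, near the share of all genes), with sums of 420 to 581 FPKM in sham and 605 to 669 FPKM in I/R. Of 6 smooth muscle and pericyte markers, *Rgs5* was called higher and *Pdgfrb* lower. Neither of the 2 red blood cell markers tested was called.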
